A study of Homo sapiens with 12 samples.

Results

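The androgen-driven state of VCaP cells was compared directly with their glucocorticoid-driven state on 6 of the 12 Illumina BeadChip arrays of the series. VCaP is an established human prostate cancer line that carries the TMPRSS2-ERG fusion. The androgen arm held 3 cultures given 0.1 nM dihydrotestosterone (DHT), a natural androgen, and no enzalutamide. The glucocorticoid arm, called the combination below, held 3 cultures given 10 µM enzalutamide, an antiandrogen, plus 100 nM dexamethasone, a synthetic glucocorticoid. The arms were set against their own baselines, 3 vehicle (DMSO) cultures for DHT and 3 cultures with 10 µM enzalutamide alone for dexamethasone. All 12 cultures of this single line had grown in complete medium and were harvested at 24 h as biological triplicates. In bulk RNA, fewer cells of a type and less RNA per cell cannot be told apart. The arms therefore differed in the agonist, its concentration and the presence of enzalutamide, and these cannot be told apart in the direct comparison.

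Steroid hormones act through nuclear receptors that enter the nucleus when bound by hormone, and those for androgens and glucocorticoids recognise very similar DNA elements, inverted repeats of a short half-site. In prostate cells androgens drive secretory and differentiation genes such as the kallikreins. Some of these genes also respond to the glucocorticoid receptor, which enzalutamide does not block. The comparison asks which genes stood at the same level in both arms and which answered to a single agonist.

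A probe was kept where its detection p-value was under 0.05 on at least 3 of the 12 arrays, and the brightest kept probe stood for its gene, leaving 11414 genes. Levels are normalized log2 intensities, differences are log2 values ± SE (n = 3 arrays in each group), and adjusted p-values come from limma with the Benjamini-Hochberg method over all of them. A level is that of a probe and was never set against that of another probe. The mean intensity of the 6 arrays of the arms lay between 295 and 344 and their detected probes between 17020 and 18212, and the number of arrays limits the precision. Arrays correlated at 0.992 to 0.994 within an arm and at 0.979 to 0.981 between the arms. Of the luminal epithelial markers, KRT8, KRT18, KRT19, EPCAM, CDH1, KLK3, HOXB13, FOXA1, AMACR and ERG were detected on all 6 arrays, and the basal keratins KRT5, KRT14 and KRT15 on 0. No array detected any of the 3 probes for the glucocorticoid receptor gene NR3C1 or the probe for PER1 (0 of 12).

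Across all genes the arms differed in many places, but by small amounts. Of the 11414 genes, 2354 (20.6%) differed at an adjusted p under 0.05, 1180 (10.3%) higher with DHT and 1174 (10.3%) higher with the combination. Only 442 and 416 of these differed by at least 1.5-fold, 115 and 96 by at least 2-fold, and 7 and 5 by at least 4-fold. The unadjusted p was under 0.05 for 3678 genes, and the 3 arrays of one arm all lay above the 3 of the other for 4446 (39%). An exact permutation test of 3 arrays against 3 cannot go below 0.1, so that single genes rest on the fit across all genes. A gene was called at the same level where the 95% interval of the direct difference lay wholly within 1.5-fold (0.585 on the log2 scale) either way. This held for 7703 genes (67.5%), of which 483 also differed at an adjusted p under 0.05, by less than that margin. A further 1840 genes (16.1%) were undecided, neither within the margin nor different.

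The direct difference is the difference of the agonist changes plus that of the baselines. DHT raised 1259 genes (11%) and lowered 1217 (10.7%) from vehicle, and dexamethasone raised 204 (1.79%) and lowered 196 (1.72%) from enzalutamide alone. Of the 2354 genes that differed between the arms, 1537 (65.3%) had moved with DHT alone, 46 (1.95%) with dexamethasone alone and 168 (7.14%) with both, while for 603 (25.6%) neither change passed the threshold. For most genes at the same level neither agonist change was called, which held for 6727 of the 7703 (87.3%). When arrays were only shifted to equal medians over all 47322 probes, called median scaling below, 813 genes differed between the arms. All 2354 kept their sign and 793 of them were still called. With the medians taken over the 20265 kept probes instead, called kept-probe scaling, 2141 genes differed and 2055 of the 2354 were still called.

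**Figure D1:**
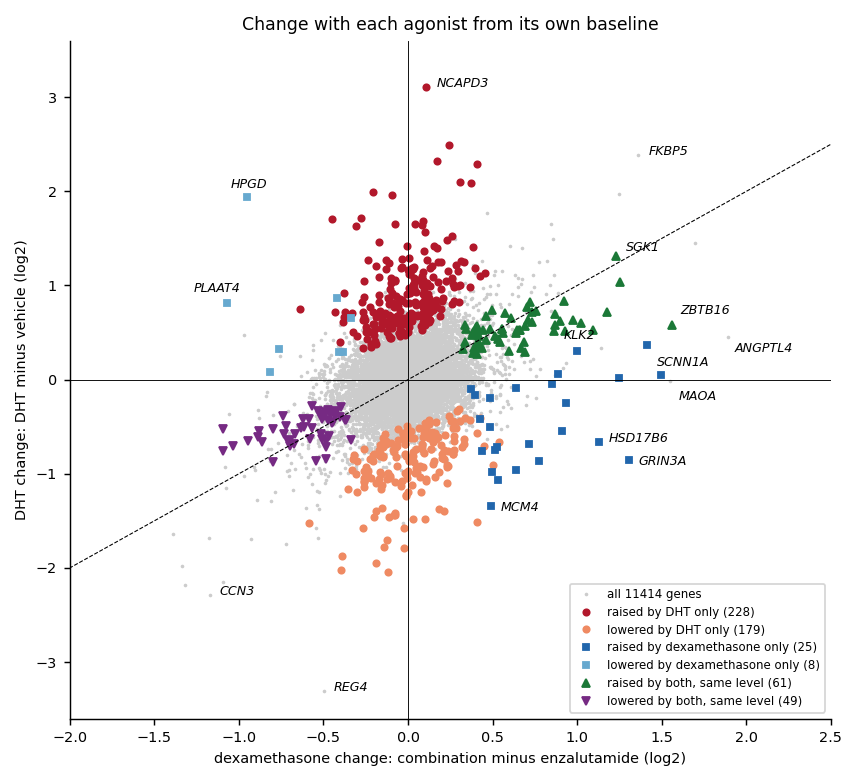
Change with DHT from vehicle (vertical axis, log2) against change with dexamethasone from enzalutamide alone (horizontal axis, log2), 1 point per gene, with the arm-specific classes and the genes moved by both agonists to the same level in colour. The dashed line marks equal changes. The DHT-only classes of 228 and 179 genes stand along the vertical axis, near a dexamethasone change of 0, a place that their definition favours. The axes share no array.

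Both agonists raised 119 genes from their own baselines, with a median change of 0.64 for DHT and 0.55 for dexamethasone. Of these, 61 (51.3%) stood at the same level in both arms, 55 were higher with DHT, 1 was higher with the combination and 2 were undecided. The genes at the same level included hormone-response genes and a large group of endoplasmic reticulum (ER) folding genes. The count rests on few arrays: it fell from 119 to between 68 and 76 when any single enzalutamide or combination array was left out, and the 61 at the same level became 32 to 39 without DHT replicate 1 or any of those 6 arrays. With median scaling 44 genes were raised by both and 15 of them stood at the same level. With kept-probe scaling these were 107 and 57.

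SGK1, a serum- and glucocorticoid-induced kinase, stood at 6.59, 6.77 and 6.73 on the DHT arrays and at 6.55, 6.46 and 6.65 on the combination arrays. The arms overlapped, and both lay above their baselines, where no array exceeded 5.78. The direct difference was 0.15 ± 0.17 (95% interval -0.23 to 0.52), after rises of 1.32 ± 0.17 with DHT (adjusted p = 0.000215) and 1.23 ± 0.17 with dexamethasone (adjusted p = 0.00205). The interval passed the margin when DHT replicate 1 or combination replicate 3 was left out.

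RGS4, an inhibitor of G-protein signalling, read 7.75, 7.51 and 7.75 with DHT and 7.60, 7.54 and 7.44 with the combination (difference 0.15 ± 0.10, interval -0.07 to 0.36). CEBPD, a transcription factor of acute-phase and differentiation genes, read 9.05, 9.08 and 8.93 against 8.91, 8.94 and 8.65 (0.19 ± 0.11). The arms overlapped for both genes. ELL2, a transcription elongation factor, read 10.17, 10.27 and 10.16 with DHT and 9.75, 9.81 and 9.96 with the combination. Its arms did not overlap and its difference of 0.35 ± 0.09 (adjusted p = 0.0185) was called while staying within the margin. The call was lost with median scaling and without DHT replicate 2 or combination replicate 1 or 2.

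KLK2, a kallikrein protease of the prostate, behaved in the same way, with 12.46, 12.38 and 12.45 on the DHT arrays and 12.20, 12.12 and 12.07 on the combination arrays. The DHT arrays were all higher, by 0.30 ± 0.08 (1.23-fold, adjusted p = 0.0168), within the margin. KLK2 rose by 0.58 ± 0.08 with DHT and by 0.87 ± 0.08 with dexamethasone, from baselines of 11.85 ± 0.08 (SD, n = 3) and 11.26 ± 0.02. The direct call was lost with median scaling and without DHT replicate 1 or 3 or combination replicate 2 or 3.

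The clearest shared group was that of the ER folding genes, which encode the chaperones, disulfide isomerases and co-factors that fold secreted proteins. Of 20 members tested, 18 rose with DHT and 11 with dexamethasone, against 11% and 1.79% of all genes, and 10 rose with both. All 10 stood at the same level in the arms, and 14 of the 20 members did so (67.5% of all genes). The 10 were between 8 and 10 whichever single array was left out, and 7 with median scaling. SDF2L1, an ER chaperone component, read 11.10, 10.95 and 11.16 with DHT and 10.99, 11.07 and 10.98 with the combination (difference 0.06 ± 0.09, interval -0.14 to 0.25). PDIA4, a disulfide isomerase, read 8.18, 8.21 and 8.10 against 8.30, 8.10 and 8.16 (-0.02 ± 0.11). The arrays of the arms were interleaved for both genes. MANF, a secreted ER stress-response factor, differed by 0.21 ± 0.09, CRELD2 by 0.06 ± 0.09 and HYOU1, an ER chaperone, by 0.29 ± 0.13, whose upper limit of 0.58 lay just inside the margin and passed it in several fits that left out an array.

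The ER group was not uniform. HSPA5, the main ER chaperone, read 10.44, 10.42 and 10.51 with DHT and 11.07, 10.98 and 11.03 with the combination, and all combination arrays were higher, with a difference of -0.57 ± 0.07 (adjusted p = 0.000197). It rose by 0.93 ± 0.07 with dexamethasone, and its change with DHT was 0.18 ± 0.07 (adjusted p = 0.106). The changes differed (adjusted p = 0.00119). KDELR3, a receptor that returns proteins to the ER, and CREB3L4, a transcription factor activated in the ER, were higher with DHT by 1.12 ± 0.10 and 1.10 ± 0.18, and EDEM1, which takes misfolded proteins to degradation, by 0.62 ± 0.10. KDELR3 and CREB3L4 had dexamethasone changes of 0.03 and -0.10, neither past the threshold. The direct calls of HSPA5 and EDEM1 were lost with median scaling.

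**Figure D2:**
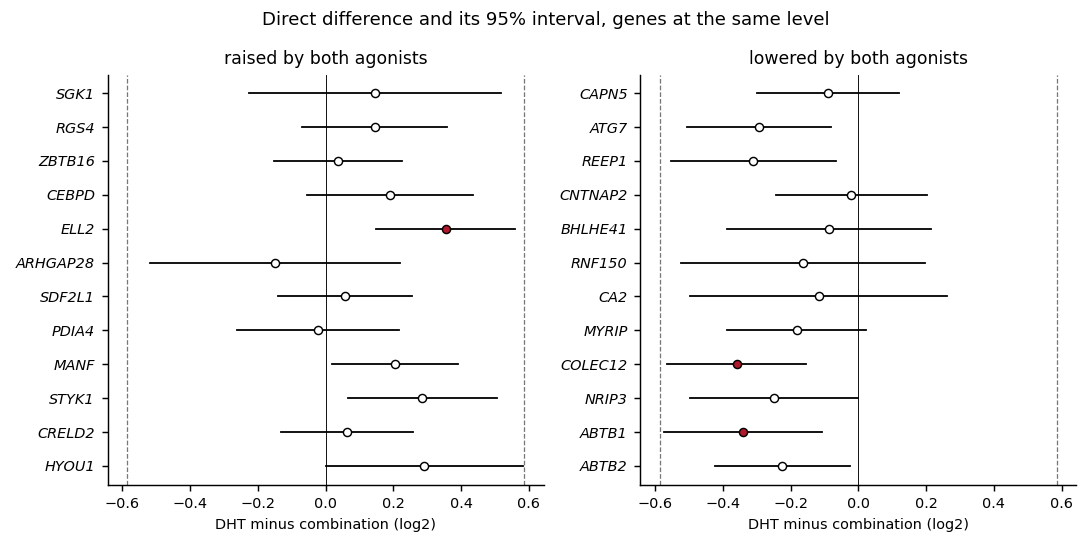
Direct difference, DHT minus combination (log2), with its 95% interval for 12 genes raised and 12 genes lowered by both agonists at the same level, and dashed lines at 1.5-fold either way. Filled points, ELL2, COLEC12 and ABTB1, differed at an adjusted p under 0.05, and the upper limit of HYOU1 lies at 0.58, just inside the line at 0.585.

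The remaining genes of this group were ARHGAP28 (-0.15 ± 0.17), STYK1, a receptor-like kinase (0.29 ± 0.10), and ZBTB16, described with the baselines below. The intervals of ARHGAP28 and STYK1 passed the margin with median scaling and in fits that left out an array, among them DHT replicate 2 for ARHGAP28 and DHT replicate 1 for STYK1.

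Both agonists lowered 121 genes, with a median change of -0.69 for DHT and -0.56 for dexamethasone. Of these, 49 (40.5%) stood at the same level, 68 were lower with DHT than with the combination, 0 were lower with the combination, and 4 were undecided. CAPN5, a calpain protease, read 7.52, 7.47 and 7.60 with DHT and 7.68, 7.60 and 7.57 with the combination, overlapping, with a difference of -0.09 ± 0.10 (interval -0.30 to 0.12). Its baselines were at or above 8.13 on all 6 arrays. CNTNAP2, a neuronal adhesion protein, read 6.61, 6.78 and 6.71 against 6.70, 6.64 and 6.82 (-0.02 ± 0.10).

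ATG7, an enzyme of autophagosome formation, differed by -0.29 ± 0.10, MYRIP, a linker of secretory vesicles to myosin, by -0.18 ± 0.09, CA2, a carbonic anhydrase, by -0.12 ± 0.17 and RNF150 by -0.16 ± 0.16. Both kept probes of MYRIP had differences of opposite sign. NRIP3 and ABTB2 differed by -0.25 ± 0.11 and -0.22 ± 0.09. COLEC12, a scavenger receptor, and ABTB1 were called at -0.36 ± 0.09 and -0.34 ± 0.11, within the margin. Both calls were lost with median scaling. That of COLEC12 was also lost on the 6 arrays alone and without DHT replicate 2 or combination replicate 3. That of ABTB1 was also lost without background correction, with an offset of 50 added to the intensities, with the authors' processed values, with the technical division as a block and without enzalutamide replicate 1 or any single array of either arm. BHLHE41, a circadian repressor, was detected on 0 arrays of either arm and on all 6 baseline arrays, so that its levels in the arms are bounds only. REEP1, an ER-shaping protein, was detected on 0 DHT and 2 combination arrays. The 121 genes became 71 to 76 without any of the enzalutamide arrays and 79 and 75 without combination replicates 2 and 3. The 49 at the same level became 24, 25 and 32 without DHT replicates 1, 2 and 3, 27 and 29 without enzalutamide replicates 1 and 2, and 26 to 30 without a combination array. With median scaling 16 genes were lowered by both and 0 of them stood at the same level. With kept-probe scaling these were 79 and 29.

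Several androgen targets rose with both agonists and stood higher with DHT. FKBP5, a co-chaperone of steroid receptors, read 11.60, 11.77 and 11.74 with DHT and 9.74, 9.65 and 9.78 with the combination. The arms were far apart, by 1.98 ± 0.10 (3.95-fold, adjusted p = 1.59e-07), although FKBP5 rose by 1.36 ± 0.10 with dexamethasone (adjusted p = 2.13e-05) as well as by 2.39 ± 0.10 with DHT. The DHT rise was the larger (difference of the changes 1.03, adjusted p = 0.000864).

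SLC45A3, a prostate transporter also known as prostein, read 12.14, 12.16 and 12.14 against 11.28, 11.19 and 11.15 (0.94 ± 0.08, adjusted p = 1.38e-05). Its changes, 0.93 ± 0.08 with DHT and 0.73 ± 0.08 with dexamethasone, did not differ at the threshold (adjusted p = 0.378), and its baselines were 11.22 ± 0.09 (SD, n = 3) with vehicle and 10.48 ± 0.09 with enzalutamide. KLK3, which encodes prostate-specific antigen, read 6.23, 6.36 and 6.26 against 5.42, 5.14 and 5.49 (0.93 ± 0.12, adjusted p = 0.000179). It too had unequal baselines, 5.27 ± 0.17 (SD, n = 3) and 4.68 ± 0.11, the latter detected on 0 of 3 arrays. ERG, the fusion partner of TMPRSS2 in these cells, was higher with DHT by 1.16 ± 0.10 (adjusted p = 1.09e-05), and ERRFI1, a feedback inhibitor of the EGF receptor, by 1.23 ± 0.09 (adjusted p = 3.16e-06). For ERRFI1 the changes differed (1.30, adjusted p = 0.000134), for ERG they did not at the threshold (0.42, adjusted p = 0.113).

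Of 32 androgen-induced genes tested, 27 were higher with DHT and 2 with the combination, with a median of 0.81 against -0.00151 over all genes. With dexamethasone 12 of them rose and 1 fell, with DHT 26 rose and 1 fell. The 2 became 1 with median scaling and without any single array of either arm, vehicle replicate 2 or enzalutamide replicate 3. The 6 at the same level included KLK2 and ELL2. PTGER4, a prostaglandin receptor, was higher with the combination (-0.88 ± 0.10).

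Genes specific to one arm were defined by 4 conditions, each at an adjusted p under 0.05. The arms differed by at least 1.5-fold, and the agonist of one arm had moved the gene in that direction. The agonist of the other arm had not passed the threshold in that direction, and the changes themselves differed. In all 440 genes (3.85%) met the 4 conditions. Of these, 228 were raised by DHT only, 179 lowered by DHT only, 25 raised by dexamethasone only and 8 lowered by dexamethasone only. The classes use the same arrays as the direct difference and are counts, not a test. Class and list counts include genes that passed the detection filter only through the arm where they were high. PGLYRP2 and CYP4F22 among the 25 and UGT2B28 among the 228, described below, are such genes, and their full number was not counted. A change that missed the threshold is not shown to be absent. The change with the other agonist, in either direction, had an unadjusted p under 0.05 for 45 of the 228 and 47 of the 179. It did so for 15 of the 25 and 7 of the 8. The median dexamethasone change was 0.000599 among genes raised by DHT only, with 114 of the 228 positive, and -0.00284 among those lowered by DHT only, with 90 of the 179 negative. The conditions keep out genes that dexamethasone moved past the threshold in the same direction, so these values are partly set by the selection. The total over the 4 classes was 157 with median scaling and 370 with kept-probe scaling.

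Genes raised by DHT only were led by NCAPD3, a condensin subunit that shapes mitotic chromosomes. It read 10.00, 10.13 and 10.25 with DHT and 6.59, 6.49 and 6.44 with the combination, a difference of 3.62 ± 0.12 (12.3-fold, adjusted p = 8.8e-09). The dexamethasone change was 0.11 ± 0.12 (adjusted p = 0.777). TMPRSS2, a membrane serine protease, read 11.95, 11.84 and 11.90 against 10.17, 10.21 and 10.06 (1.75 ± 0.08, 3.36-fold, adjusted p = 1.18e-07), with a dexamethasone change of 0.23 ± 0.08 (adjusted p = 0.178). The combination arrays of both genes lay below the vehicle arrays.

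SLC2A3, a glucose transporter, read 8.21, 8.37 and 8.26 against 5.07, 4.67 and 4.83 (3.42 ± 0.12, 10.7-fold, adjusted p = 8.8e-09), and it was detected on 1 of 3 combination arrays. SERPINA3, a protease inhibitor that binds prostate-specific antigen, read 7.36, 7.54 and 7.56 against 5.15, 4.76 and 4.89 (2.56 ± 0.15), also detected on 1 combination array. ORM2, an acute-phase plasma protein, read 7.64, 7.37 and 7.74 with DHT, was detected on 0 combination arrays (mean 4.74) and was at least 6.16-fold higher with DHT (adjusted p = 1.59e-07). STEAP4, a metalloreductase, read 6.01, 6.25 and 6.02 with DHT, was also detected on 0 combination arrays (mean 4.47) and was at least 2.19-fold higher. The STEAP4 probe was detected on 4 arrays in all and would not have passed the detection filter without the DHT arrays. Its values are therefore given as a description.

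Others of this class act in retinoid metabolism, such as RDH10, a retinol dehydrogenase (2.01 ± 0.11), and ALDH1A1, a retinaldehyde dehydrogenase (1.94 ± 0.11). TRPM8, a cold-sensing ion channel, differed by 1.96 ± 0.10, NBL1, an antagonist of bone morphogenetic proteins, by 1.96 ± 0.09 and RFPL2 by 1.92 ± 0.18. The probe of LIPG, a lipase, was detected on 3 DHT and 0 combination arrays (means 6.83 and 4.72). GLIS3, a zinc finger transcription factor (1.92 ± 0.18), IL20RA, a cytokine receptor chain (1.91 ± 0.11), and ST6GAL1, a sialyltransferase (1.91 ± 0.14), were among the 15 largest differences in this direction. For TRPM8 the DHT change was 0.72 ± 0.10 and the dexamethasone change -0.21 ± 0.10 (adjusted p = 0.34), from baselines of 9.76 ± 0.03 (SD, n = 3) with vehicle and 8.73 ± 0.05 with enzalutamide.

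Genes lowered by DHT only stood high with the combination. SLC3A1, a subunit of a cystine transporter, read 5.08, 5.23 and 5.12 with DHT and 7.80, 7.45 and 7.75 with the combination (-2.52 ± 0.13, 5.74-fold, adjusted p = 2.06e-07). TSPAN8, a tetraspanin of the cell surface, read 7.83, 7.75 and 7.90 against 9.86, 9.91 and 9.97 (-2.09 ± 0.08, 4.26-fold, adjusted p = 1.96e-08). The arms were well apart for both, and the dexamethasone changes were -0.19 ± 0.13 and -0.08 ± 0.08. MYC, the growth-promoting transcription factor, read 9.13, 9.23 and 9.21 against 10.87, 10.78 and 10.78 (-1.62 ± 0.09, 3.07-fold, adjusted p = 2.9e-07), with a dexamethasone change of -0.20 ± 0.09 (adjusted p = 0.312).

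HOPX, a small homeodomain protein (-2.34 ± 0.12), CAMKV, a kinase-like protein of synapses (-1.97 ± 0.11), FABP5, a fatty acid carrier (-1.96 ± 0.12), and ASZ1, a germ cell protein (-1.94 ± 0.14), followed in this class, with HOPX detected on 2 and ASZ1 on 1 DHT array. S100P, a calcium-binding protein (-1.86 ± 0.11), the phospholipase PLA2G2A (-1.81 ± 0.12) and MGP, a matrix calcification inhibitor (-1.77 ± 0.10), were lowered by DHT only as well. CEACAM6, an adhesion molecule, and SLC18B1, a vesicular transporter, were detected on 0 DHT arrays (means 4.79 and 4.59) and were at least 3.35-fold and 2.73-fold higher with the combination (means 6.71 and 6.41).

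The largest differences in this direction were in genes that both agonists lowered, by unequal amounts. REG4, a secreted lectin, read 7.28, 7.07 and 7.14 with DHT and 10.60, 10.42 and 10.59 with the combination (-3.38 ± 0.10, 10.4-fold, adjusted p = 8.32e-09). It fell by 3.31 ± 0.10 with DHT and by 0.50 ± 0.10 with dexamethasone (adjusted p = 0.0205). CCN3, a matricellular protein, read 5.28, 5.23 and 4.88 against 8.08, 8.04 and 8.27 (-3.00 ± 0.12, 8.01-fold) and was detected on 2 of 3 DHT arrays. It fell by 2.29 ± 0.12 and 1.17 ± 0.12. MATN2, a matrix protein, differed by -1.98 ± 0.10 and MIR99AHG, a microRNA host transcript, by -1.74 ± 0.12. Of 14 androgen-repressed genes, 12 were higher with the combination and 1 with DHT (median -0.88), 10 fell with DHT, and 5 fell and 1 rose with dexamethasone. FOLH1, which encodes prostate-specific membrane antigen, differed by -1.55 ± 0.15, the opioid receptor gene OPRK1 by -1.40 ± 0.11.

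**Figure D3:**
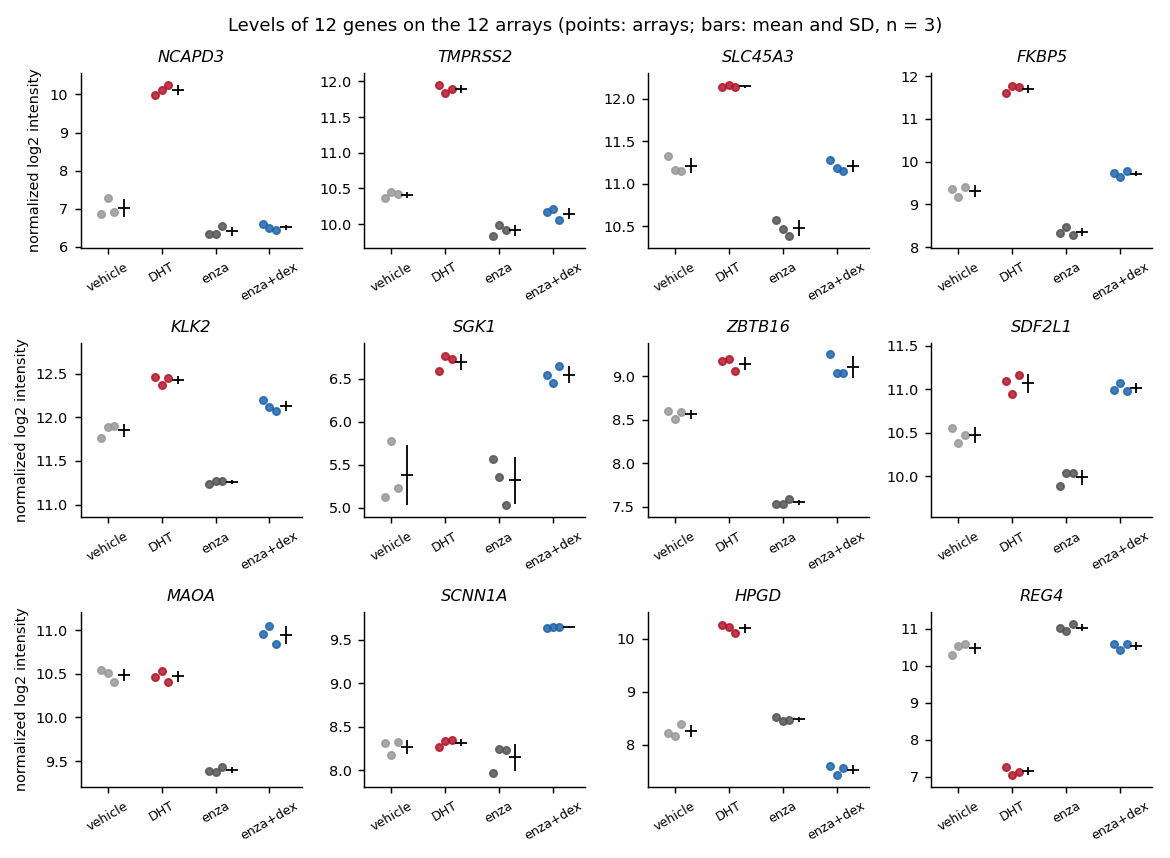
Normalized log2 intensity of 12 genes on each of the 12 arrays by group (points), with the mean and SD beside them (n = 3), where enza is enzalutamide and dex dexamethasone. SGK1, ZBTB16 and SDF2L1 overlap between the DHT and the combination arrays, NCAPD3 stands at 10.00 to 10.25 with DHT and at 6.44 to 6.59 with the combination, and SCNN1A is high with the combination alone.

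The short letters of the shared receptor half-site, AGAACA or its reverse complement TGTTCT, were searched in RefSeq promoters (GRCh38.p14), 250 bases before to 50 after each annotated start. Promoters were found for 9207 of the 11414 genes, and those of 13.1% of them held the half-site, a match that bears no evidence of binding. The share was 11.2% of 187 genes raised by DHT only, 12.7% of 142 lowered by DHT only and 2 of 18 (11.1%) raised by dexamethasone only. It was 12% of 50 genes raised by both at the same level and 2.94% of 34 lowered by both, all at or below the share of all tested genes. The exact full inverted repeat, both half-sites letter for letter with 3 bases between them, was found in 0 of the 9207 and in 1 of all 27305 genes of the table. Repeats with any other letter in a half-site were not searched for, here or in the windows below, so their absence is not shown. The windows below are those of KLK3 and, for 3 of the classes, of the gene with the largest difference that held a half-site before its start (capitals), 5′ to 3′ on the strand of the gene.
KLK3: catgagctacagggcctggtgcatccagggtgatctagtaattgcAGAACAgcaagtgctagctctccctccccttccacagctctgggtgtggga
SERPINA3: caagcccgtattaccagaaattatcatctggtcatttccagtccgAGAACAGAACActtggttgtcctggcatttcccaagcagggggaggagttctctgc
TSPAN8: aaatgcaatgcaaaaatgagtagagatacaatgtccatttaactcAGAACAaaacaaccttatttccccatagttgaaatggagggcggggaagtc
COLCA1: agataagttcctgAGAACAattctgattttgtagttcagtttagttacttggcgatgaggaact
The KLK3 window is chr19:50854700-50854795 on the plus strand, with the half-site 170 bases before the start. That of SERPINA3, raised by DHT only, is chr14:94612256-94612356 on the plus strand and holds 2 overlapping half-sites, 90 and 85 bases before the start. TSPAN8, lowered by DHT only, is shown at chr12:71158138-71158233 and COLCA1, raised by dexamethasone only, at chr11:111305235-111305298, both on the minus strand, with the half-site 189 and 237 bases before the start. A second half-site of COLCA1, 173 bases before the start, lies outside the stretch shown. The genes of the 3 classes were picked for holding these letters, so their presence in the windows says nothing about the classes.

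Genes specific to the glucocorticoid arm were few. SCNN1A, a subunit of the epithelial sodium channel, read 8.27, 8.33 and 8.34 with DHT and 9.63, 9.65 and 9.65 with the combination (-1.33 ± 0.09, 2.51-fold, adjusted p = 1.55e-06). The DHT arrays overlapped the vehicle arrays and lay just above those with enzalutamide alone. It rose by 1.49 ± 0.09 with dexamethasone (adjusted p = 7.07e-06) and its DHT change was 0.05 ± 0.09 (adjusted p = 0.768). SCNN1B, another subunit of that channel, was detected on the 3 combination arrays and on 0 of the other arrays, and was at least 1.11-fold higher than with DHT (means 5.11 and 4.51). It passed the detection filter only through the combination arrays, so its values are given as a description. KLF9, a transcription factor and well-known glucocorticoid target, read 8.54, 8.68 and 8.55 against 9.27, 9.03 and 9.24 (-0.59 ± 0.11, adjusted p = 0.00249), after a rise with dexamethasone (adjusted p = 0.000362) and a change of 0.30 ± 0.11 with DHT (adjusted p = 0.0737).

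PGLYRP2, which cleaves bacterial peptidoglycan, and CYP4F22, a fatty acid hydroxylase, were detected on all 3 combination arrays and on 0 arrays of the other groups. They were at least 1.91-fold and 1.249-fold higher than with DHT, also as a description, since they too passed the filter through those arrays alone. CCL2, a monocyte chemokine, read 5.42, 5.82 and 5.91 against 6.47, 6.62 and 6.70 (-0.88 ± 0.14, adjusted p = 0.000733). Of 31 glucocorticoid-induced genes tested, 9 were higher with the combination, 5 with DHT and 14 at the same level (median -0.025). In all 45.2% were called, against 20.6% of all genes, of which 67.5% stood at the same level. With dexamethasone 12 of the 31 rose and 1 fell, where 1.79% and 1.72% of all genes did. With DHT 10 rose and 2 fell, against 11% and 10.7%. The 5 included FKBP5 and ERRFI1. The 9 and 5 became 5 and 3 with median scaling. TSC22D3, a glucocorticoid-induced leucine zipper protein, was at 5.40, 5.36 and 5.16 with DHT and 5.02, 5.56 and 5.41 with the combination, and moved with neither agonist at the threshold (0.32 ± 0.15 and -0.14 ± 0.15). These levels lay near the lowest detected signal of the same arrays, 4.94 to 5.01, so that a missing response is not shown. Its direct difference ranged from -0.33 to 0.36 over the alternatives.

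Of the 25 genes raised by dexamethasone only, 14 were also lowered by DHT, so for them the arms moved in opposite directions. COLCA1 rose by 0.91 ± 0.11 with dexamethasone and fell by 0.55 ± 0.11 with DHT, and the arms read 8.90, 9.14 and 9.04 against 10.10, 10.27 and 10.38. GRIN3A, a glutamate receptor subunit, rose by 1.31 ± 0.12 and fell by 0.85 ± 0.12. HSD17B6, an enzyme that can form DHT from androstanediol, rose by 1.13 ± 0.09 and fell by 0.66 ± 0.09, and read 6.23, 6.26 and 6.29 against 7.42, 7.27 and 7.25. SLC27A2, a fatty acid transport protein, rose by 0.53 ± 0.08 and fell by 0.72 ± 0.08. The baselines of GRIN3A, 6.68 ± 0.17 (SD, n = 3) and 5.58 ± 0.20, and of HSD17B6, 6.92 ± 0.08 and 6.19 ± 0.14, were themselves apart, and the DHT levels were 5.83 ± 0.09 and 6.26 ± 0.03. In all, 18 genes fell with DHT and rose with dexamethasone and all 18 were higher with the combination. The 25 became 14 to 16 without enzalutamide replicate 3 or combination replicate 2 or 3, and the 18 became 10 or 11 without any enzalutamide array or combination replicate 2. With median scaling the 25 became 10 and the 18 became 2.

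DNA replication genes made up much of that group. Of 30 members tested, 17 were higher with the combination and 0 with DHT (median -0.52), 22 fell with DHT, and 7 rose with dexamethasone, against 10.7% and 1.79% of all genes. MCM4, a subunit of the replicative helicase, read 7.35, 7.38 and 7.26 with DHT and 8.48 on each of the 3 combination arrays (-1.15 ± 0.09, 2.22-fold, adjusted p = 3.16e-06). It fell by 1.35 ± 0.09 with DHT and rose by 0.49 ± 0.09 with dexamethasone (adjusted p = 0.0083), and the changes differed by -1.84 (adjusted p = 1.09e-05). MCM10, a replication initiation factor, differed by -0.95 ± 0.12. MCM2 and MCM6 fell with DHT alone and differed by -1.10 ± 0.09 and -0.87 ± 0.08. The 17 were 17 or 18 when a single array was left out and 13 with median scaling, while the 7 became 4 without any enzalutamide array or combination replicate 2 or 3. With median scaling the 22 became 8 and the 7 became 2.

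Genes of mitosis, the later part of the cell cycle, did not share this difference. Of 32 tested, 29 stood at the same level (67.5% of all genes), 1 was higher with DHT and 0 with the combination. From their own baselines, 5 rose and 0 fell with DHT, against 11% and 10.7% of all genes, and 0 moved with dexamethasone. The 1 was AURKA, a mitotic kinase, at 0.24 ± 0.08 (adjusted p = 0.0398), a call lost in most alternatives. Of 21 genes of G1 cyclins and cell cycle brakes, 3 were higher with DHT and 6 with the combination. CDKN1A, an inhibitor of cyclin-dependent kinases, was higher with DHT (0.59 ± 0.10), and CCNG2, a cyclin linked to cell cycle arrest, and CDK4, a G1 kinase, were lower (-0.78 ± 0.11 and -0.49 ± 0.11). The share called in either direction was 42.9%, against 20.6% of all genes. With median scaling the 3 became 0 and the 6 became 2, and the calls of CDKN1A and CDK4 were lost.

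Only 8 genes were lowered by dexamethasone only, and 6 of these rose with DHT. HPGD, the enzyme that breaks down prostaglandins, read 10.26, 10.22 and 10.11 with DHT and 7.60, 7.43 and 7.57 with the combination (2.67 ± 0.09, 6.34-fold, adjusted p = 8.8e-09). It rose by 1.94 ± 0.09 with DHT and fell by 0.95 ± 0.09 with dexamethasone (adjusted p = 0.00013), and its combination arrays lay below those of both baselines. PLAAT4, a phospholipase and acyltransferase, read 7.86, 7.91 and 8.17 against 6.65, 6.57 and 6.49 (1.41 ± 0.10), after 0.81 ± 0.10 and -1.07 ± 0.10. LXN, a carboxypeptidase inhibitor, differed by 1.47 ± 0.09 and OSBPL10, a lipid-binding protein, by 0.72 ± 0.08. RAB36, a small GTPase (0.70 ± 0.14), PACS1, a sorting protein (0.63 ± 0.08), NRP1, a co-receptor of semaphorins and growth factors (0.63 ± 0.11), and DHDH, a dehydrogenase (0.62 ± 0.10), completed the class. The 8 became 3 to 5 without any combination array and 4 without enzalutamide replicate 2, and 2 with median scaling.

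Among the 7703 genes at the same level, the changes differed at an adjusted p under 0.05 for 97 (1.26%), against 3.29% positive and 3.61% negative over all genes. ZBTB16, a zinc finger repressor, read 9.18, 9.20 and 9.06 with DHT and 9.25, 9.04 and 9.03 with the combination (0.04 ± 0.09, interval -0.15 to 0.23). It rose by 0.58 ± 0.09 with DHT from 8.57 ± 0.05 (SD, n = 3) and by 1.56 ± 0.09 with dexamethasone from 7.55 ± 0.03, and the changes differed (-0.98, adjusted p = 0.000659). Its 3 kept probes did not all have direct differences of the same sign.

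MAOA, a monoamine-degrading enzyme, read 10.46, 10.54 and 10.41 with DHT and 10.95, 11.04 and 10.84 with the combination, with all combination arrays higher. The difference was -0.48 ± 0.08 (adjusted p = 0.00164), a call lost with median scaling. It rose by 1.55 ± 0.08 with dexamethasone from 9.40 ± 0.03 (SD, n = 3), and its DHT change was -0.02 ± 0.08 from 10.49 ± 0.07. ANGPTL4, an inhibitor of lipoprotein lipase and the 1 gene raised by both that was higher with the combination, was named after its values were seen. It read 6.37, 6.26 and 6.66 against 6.84, 6.97 and 6.80, without overlap (-0.44 ± 0.13, adjusted p = 0.035), after 0.46 ± 0.13 with DHT and 1.89 ± 0.13 with dexamethasone. NR3C2, the mineralocorticoid receptor, read 5.58, 5.95 and 5.95 against 6.19, 6.15 and 6.08. It rose with dexamethasone by 0.70 ± 0.12 (adjusted p = 0.00807), and its interval of -0.58 to -0.05 passed the margin in most fits that left out one array.

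Of 11 steroid receptors and cofactors tested, 10 stood at the same level (67.5% of all genes) and 18.2% were called, against 20.6% of all genes. Of these, 1 was higher with DHT (NCOA1, a coactivator, 0.37 ± 0.09) and 1 with the combination (GATA2, a transcription factor, -0.28 ± 0.08), both within the margin and both lost with median scaling, that of GATA2 also without any single array of either arm. Among 11 genes of androgen synthesis and inactivation, 2 were higher with DHT and 4 with the combination. UGT2B28, a glucuronosyltransferase that inactivates steroids, was detected on 3 DHT and 0 combination arrays and was at least 1.498-fold higher (means 5.54 and 4.35), a description since it passed the filter through the DHT arrays alone, and UGT2B11, of the same family, differed by 0.93 ± 0.18. AKR1C3, which makes testosterone, differed by -0.83 ± 0.09, beside HSD17B6. Near-identical members of these families may share signal on a probe, which was not tested.

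Of 20 sterol synthesis and uptake genes, 12 were higher with DHT and 1 with the combination (median 0.33), where 10.3% of all genes were called in each direction, and 3 rose with dexamethasone. INSIG1, a sterol-regulated control protein, read 10.84, 10.81 and 10.90 with DHT and 10.06, 9.87 and 10.01 with the combination (0.87 ± 0.09, adjusted p = 3.53e-05). IDI1, an isoprenoid isomerase (0.91 ± 0.10), HMGCS1, an early enzyme of cholesterol synthesis (0.85 ± 0.08), and MSMO1, a later one (0.74 ± 0.09), were the other leading members. INSIG1 and HMGCS1 rose with both agonists. Of 16 fatty acid synthesis genes, 6 were higher with DHT and 10 at the same level, and 0 moved with dexamethasone at the threshold. FASN, fatty acid synthase, read 13.22, 13.12 and 13.27 against 12.47, 12.57 and 12.41 (0.72 ± 0.08, adjusted p = 5.76e-05). ELOVL7, ACLY and ELOVL5 differed by 1.22 ± 0.24, 0.64 ± 0.10 and 0.50 ± 0.15. With median scaling the 12 became 5 and the 6 became 1, and FASN, ACLY and ELOVL5 were not called.

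In the lists that follow, counts of called members stand against the 10.3% of all genes called in each direction and 20.6% in either. Among 11 polyamine genes, 3 were higher with DHT. These were SMS, spermine synthase (1.13 ± 0.08), ODC1, the rate-limiting enzyme of the pathway (0.80 ± 0.09), and SAT1, which acetylates polyamines for export (0.70 ± 0.10), and AZIN1 was called in the other direction (-0.33 ± 0.08) with probes of opposite sign. All 3 were in the class raised by DHT only. In all 36.4% of the polyamine genes were called. Of 24 TGF-beta and BMP genes, 7 were higher with DHT and 2 with the combination (37.5% called). GDF11, a ligand, and BMPR1B, a receptor, rose with both agonists and were higher with DHT by 1.34 ± 0.09 and 1.15 ± 0.10. BMP7, another ligand, was lower (-0.99 ± 0.14). Of 25 growth factor feedback genes, 8 were higher with DHT and 6 with the combination (56% called). IGFBP3, which binds insulin-like growth factors (-1.45 ± 0.08), RGS2 (-1.36 ± 0.11) and the pseudokinase gene TRIB1 (-1.30 ± 0.08) were the largest of the latter. The 8 became 5 without DHT replicate 2 or 3 or combination replicate 2 or 3, and 4 with median scaling. The 7 and 2 TGF-beta and BMP genes became 4 and 1 with median scaling, and the 2 also became 1 without DHT replicate 2 or any single combination array.

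Of 12 monoamine and prostaglandin enzymes, 7 were higher with the combination and 1, HPGD, with DHT (66.7% called, median -0.43). DDC, which makes dopamine and serotonin, fell with both agonists. It was detected on 0 DHT arrays and read 5.59, 5.62 and 5.63 with the combination, at least 1.57-fold higher. The 7 became 4 with median scaling. Of 13 acute phase and cytokine receptor genes, 4 were higher with DHT and 2 with the combination (46.2% called). The 2 became 1 with median scaling and without DHT replicate 3 or combination replicate 1. Beside ORM2 and SERPINA3 the former were SOCS2, a feedback inhibitor of cytokine signalling (1.31 ± 0.12), and STAT3, a cytokine-activated transcription factor (0.59 ± 0.09, lost with median scaling). Of 14 NF-kB and chemokine genes, 28.6% were called, near the background of 20.6% over all genes. Among them 1 was higher with DHT (NFKBIA, the inhibitor of NF-kB, 0.47 ± 0.08, lost with median scaling) and 3 with the combination. These 3 were CCL2, ACKR3, a chemokine scavenger (-1.54 ± 0.13), and CXCL16 (-0.61 ± 0.11).

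Of 14 ion transport genes, 1 was higher with DHT (TRPM8) and 4 with the combination (35.7% called), among them SCNN1A, SCNN1B and SLC4A4, a bicarbonate transporter (-0.75 ± 0.18). Of 27 hypoxia and glycolysis genes, 19 stood at the same level, 4 were higher with DHT, led by SLC2A3, and 5 with the combination (33.3% called). ANKRD37 (1.21 ± 0.16) and NDRG1 (0.78 ± 0.12) were higher with DHT, and EGLN3, an oxygen-sensing hydroxylase, with the combination (-1.19 ± 0.17). The 5 became 3 without DHT replicate 1 or 2 or combination replicate 2 or 3, and 2 with median scaling. Metallothioneins, zinc-binding proteins, went both ways: MT1F was higher with DHT (0.76 ± 0.15), MT1E (-0.74 ± 0.14) and MT2A (-0.55 ± 0.14) with the combination. Of the 14 genes of that list, with zinc transporters, 3 were higher with DHT and 2 with the combination (35.7% called). With median scaling these became 1 and 1, and the call of MT2A was lost with median scaling and without DHT replicate 2 or combination replicate 2 or 3.

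Of 23 amino acid response and tRNA synthetase genes, 20 stood at the same level, 2 were higher with DHT and 5 with the combination (30.4% called, against 20.6% of all genes), led by the serine synthesis enzymes PSAT1 (-0.52 ± 0.10) and PHGDH (-0.48 ± 0.10). Of 15 heat shock chaperones, 12 stood at the same level, 4 were higher with DHT and 1 with the combination (33.3% called). HSPA1A and HSPA4 each differed by 0.71. The 2 became 0 or 1 without any single array other than vehicle replicate 1 or enzalutamide replicate 3. The 5 became 2 without DHT replicate 2 or combination replicate 3 and 3 without DHT replicate 1 or 3 or combination replicate 1, and the 4 heat shock genes became 2 without DHT replicate 3 or combination replicate 1 or 3. With median scaling the 2 and 5 became 0 and 0, the 4 became 2, and PSAT1 and PHGDH were not called. Of 19 interferon-stimulated genes, 3 were higher with DHT, ISG15 (0.66 ± 0.12), IRF9 (0.46 ± 0.10) and IRF7 (0.45 ± 0.10), although 0 of the 19 moved with either agonist at the threshold. This was 15.8% of the list, and with median scaling the 3 became 1, without IRF9 and IRF7. Of 10 circadian genes 0 differed. DBP and NR1D2 had differences of -0.33 ± 0.23 and -0.32 ± 0.20 and were undecided.

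**Figure D4:**
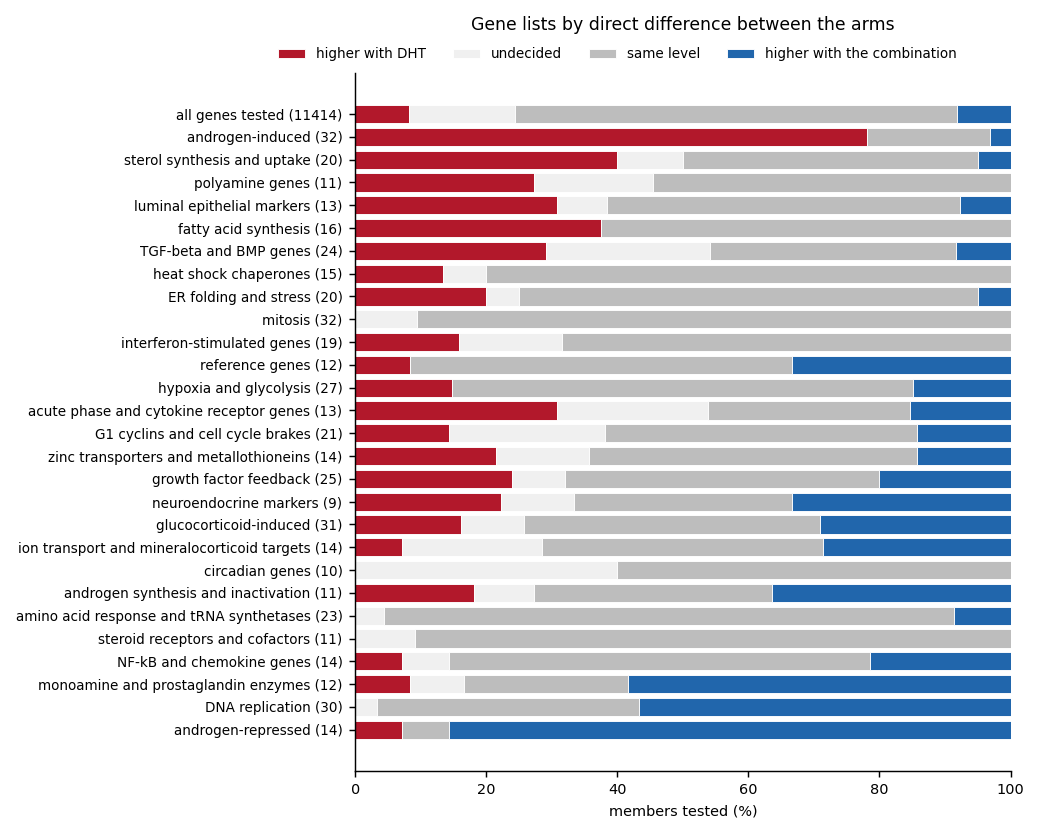
Share of the tested members of each gene list that were higher with DHT, undecided, at the same level or higher with the combination. Lists with at least 9 tested members (number in brackets) are ordered by the median direct difference below the bar for all genes tested. Members higher in one arm were called with an interval not wholly within the 1.5-fold margin, so that some differ by less than 1.5-fold. Genes called with the whole interval within the margin count as same level. In red are 25 of the 32 androgen-induced genes, and in blue 17 of 30 DNA replication genes and 12 of 14 androgen-repressed genes.

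Of 13 luminal markers tested, 7 stood at the same level, against 67.5% of all genes, and 5 (38.5%) were called, against 20.6%. Among them AMACR, a peroxisomal racemase used as a prostate cancer marker (1.37 ± 0.10), KRT19 (1.12 ± 0.10) and KLK3 were among the 4 higher with DHT, and FOLH1 was higher with the combination. Of 9 neuroendocrine markers, 2 were higher with DHT and 4 with the combination (66.7% called), which became 1 and 2 with median scaling, where SCG2 was not called. INSM1 (0.82 ± 0.11) and SCG2 (0.57 ± 0.10) were higher with DHT, and the granins CHGA (-0.61 ± 0.14) and CHGB (-0.61 ± 0.12) with the combination. Of 13 stromal markers 4 were tested, and LUM alone was called, detected on 2 DHT and 3 combination arrays (-0.77 ± 0.17, adjusted p = 0.00682). ACTA2 (0.23 ± 0.10), VIM (-0.23 ± 0.17) and FBLN1 (0.38 ± 0.13) were detected on all 6 arrays of the arms. ACTA2 stood at the same level after rising with both agonists, and the other two were undecided. Of 10 basal epithelial markers 2 were tested, ITGA6 and NGFR, and both stood at the same level. The fibroblast collagens COL1A1 and COL3A1, the T cell gene CD3E and the endothelial gene CDH5 were detected on 0 of the 6 arrays. COL1A2 and the immune gene PTPRC were each detected on 1 DHT and 0 combination arrays. The endothelial gene PECAM1 was detected on 0 DHT arrays and 1 combination array. CD68 and CD14, which are also expressed outside macrophages, were detected on all 6, and CD14 was higher with the combination (-0.52 ± 0.09), a call lost with median scaling. VWF was detected on 3 DHT and 0 combination arrays and was at least 1.29-fold higher. Their part in the results was not tested.

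Genes often used as constant references were not constant between these arms. Of 12 tested, 4 were higher with the combination and 1 with DHT (41.7%, against 20.6% of all genes), and 7 stood at the same level. PPIA, a peptidyl-prolyl isomerase, differed by -0.80 ± 0.14 (adjusted p = 0.0017), HPRT1, a purine salvage enzyme, by -0.71 ± 0.09 (adjusted p = 0.000251), TFRC, the transferrin receptor, by -0.68 ± 0.12 (adjusted p = 0.00177) and RPL13A, a ribosomal protein, by -0.64 ± 0.09 (adjusted p = 0.000402). PPIA and HPRT1 were in the class lowered by DHT only, and all 4 kept their call with median scaling.

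Limits apply to all of these values. The 12 arrays were divided into 2 sets by the sign of the first component of the probes that no array detected. This component held 12.5% of their variance. The division is called technical here, which was not tested. DHT replicates 1 and 2 and combination replicate 1 were in the first set. DHT replicate 3 and combination replicates 2 and 3 were in the second. Within the sets 279 and 459 genes were called, and all 2354 genes called over the 12 arrays kept their sign in each. The sets are parts of the arrays that gave those calls, so the kept signs are not an independent check. With the set as a block 2419 genes were called. Vehicle replicate 3 stood apart from the other arrays, with a mean intensity of 199 and 15852 detected probes. Its score on the first component of the undetected probes was 9.91, where the other arrays lay between -3.82 and 1.11. Without it 2434 genes differed between the arms, 397 were specific to one arm, 119 were raised by both agonists and 126 were lowered by both.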

How the data were processed

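RNA of 12 VCaP cultures was measured on Illumina BeadChip arrays. The deposited table holds, per the file headers, the mean bead intensity of each probe and array, without normalization, with a detection p-value, the number of beads and their standard error. GenomeStudio is named in the submitters' processing notes, with its version not given in the sources used here. A second deposited table of processed intensity values served as an alternative.

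Intensities were background-corrected and quantile-normalized with neqc of limma 3.58.1 in R 4.3.3, using the detection p-values and an offset of 16, and turned to log2. Of 47322 probes, 20265 had a detection p-value under 0.05 on at least 3 arrays. Probes were named through the platform annotation (30112 with 1 symbol, 8 with several, 17202 not listed), and 0 columns were left unmapped. A linear model with 4 group means was fitted over all kept probes (lmFit, then eBayes, with 8 degrees of freedom from the residuals and 3.71 from the prior), and the Benjamini-Hochberg adjustment ran over the 11414 genes. Where no probe of a gene was detected in an arm, "at least N-fold" sets the brighter mean against the lowest detected signal per array. The fit was tested on simulated data.

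The genes named are the 15 largest differences each way, the 10 largest of each class (12 for those moved by both agonists at the same level), up to 4 called members per list (2 where none was called), and 16 fixed genes that had a kept probe. PTGER4 counts under a list. The genes, lists and margins were chosen with earlier results of these data known. Alternatives were other scalings, offsets, filters, probe summaries and margins, blocks, and leaving out each array. Same-numbered cultures were checked for pairing by the correlation of their deviations. A few items are not reported here.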

Additional observations from a re-analysis of the deposited data

How the results depend on the processing

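The direct difference was called for 2354 genes, 440 were specific to one arm, 7703 stood at the same level and 192 list members were called. With median scaling these were 813, 157, 5475 and 108, and the share of called genes that were higher with DHT moved from 50.1% to 43.7%, with a median over all genes of -0.0363. With kept-probe scaling they were 2141, 370, 7290 and 179. Within the first technical set they were 279, 1, 4474 and 52, and within the second 459, 15, 4793 and 69, in fits of fewer arrays. Without background correction 223 genes were arm-specific, with no minimum fold 673 and with a minimum of 2-fold 152. Without the detection filter 16113 of 20047 genes stood at the same level, and with the narrower margin tried 2079 did. Leaving out each array in turn gave 1835 to 2434 called genes, 352 to 400 arm-specific genes, 6733 to 7991 at the same level and 164 to 194 called list members. Named genes gave 4207 results under the alternatives. Called genes were scored on their call and sign, and the others on lying within the 1.5-fold margin or not. Of these results 3894 stayed the same, 313 changed in either sense and 0 called genes reversed their sign. The alternatives reuse the same arrays, so this is not an independent check. The technical division was read from undetected probes after the data were seen, and it is not a labelled batch.

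Same-numbered cultures of the 2 arms correlated at 0.157, -0.0794 and 0.119 in their deviations from the group means, and not every culture correlated best with its own number, so that the numbers were not taken as pairs. With the replicate block 2451 genes were called, among them 2249 of the 2354. Signal over background limits genes near the detection level, of which 340 have only a bound in one arm, and 48 were detected in neither arm.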
